A study of Mus musculus with 17 samples.

Results

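The genes described here are Bmp4 and the genes through which its signal is received, restrained and read out: the receptor Bmpr1a, the inhibitory Smad6 and the targets Id1, Id2, Id3 and Id4. They were picked by symbol, and all 7 were found among the 20621 genes of the count table. The samples are total RNA libraries of E14, a mouse embryonic stem cell line, in a WT form and in a form named RNAPII-mut, whose genotype label is slow/slow and which is called the mutant below. All cells grew without feeders on gelatine in 10% serum with 1000 U per mL LIF. Day 0 cells received nothing more, and the day 1, day 2 and day 7 cells had 2i in the same medium for that time, that is 1 µM PD0325901 (an inhibitor of MEK) and 3 µM CHIR99021 (an inhibitor of GSK3). Each of the 8 groups had 2 libraries, except the mutant at day 1 with 3, which makes 17. The labels do not say whether replicates were separate cultures or how many clones stand for a genotype, so the p-values measure the spread between these libraries, which may be technical.

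BMP4 is a secreted ligand of the TGF-beta family. It binds type I receptors such as BMPR1A, which phosphorylate SMAD1, SMAD5 and SMAD9, and these enter the nucleus with SMAD4 and switch on targets, of which the Id genes are the best known. ID proteins have a helix-loop-helix but no DNA-binding region, and they hold E proteins away from DNA; in mouse embryonic stem cells in serum and LIF, BMP acting through Id genes is known to restrain differentiation, and 2i is known to sustain the cells without added BMP.

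Library totals lay between 47350441 and 56138844 counts. All 8 pluripotency markers were detected in every library, with a sum of 4563 to 10280 CPM (counts scaled to TMM-adjusted library size). The ERK target Spry4 was at 204 CPM in WT and 256 CPM in the mutant at day 0 and at 1.17 and 1.19 CPM at day 7, and Polr2a, which encodes the largest RNA polymerase II subunit, passed no test. The other treatment check genes, Dusp6 (lower) and Axin2 (higher), passed in both genotypes at day 7. Before day 7, Axin2 did not pass and Dusp6 passed only in the mutant at day 2. Mutant day 1 libraries were uneven, with Spry4 at 0.277, 10.4 and 3.96 CPM and Dusp6 at 3.05, 16.2 and 9.01 CPM. WT replicate 1 stood apart at days 0 to 2: the summed level of 8 stromal and smooth muscle markers was 147 to 979 CPM there, against 3.54 to 5.86 CPM in WT replicate 2 and 3.73 to 20.0 CPM in the mutant. In these 3 libraries 7 or 8 of the 8 stromal markers had counts, with Lum at 0 in 2 of them. Sums of 7 trophoblast markers (283 to 1305 CPM, against 32.4 to 190 CPM elsewhere) and, with overlap, 8 mesoderm markers (20.3 to 165 CPM, against 9.97 to 54.3 CPM elsewhere) were also high there. WT replicate 2 had a sum of 56.6 to 202 CPM for 8 primitive endoderm markers, against 9.28 to 20.9 CPM in all other libraries. Sums of 6 neural and 6 endothelial markers differed between days: in the mutant the neural sum was 199 and 206 CPM at day 0, 407 to 443 CPM at day 1, 278 and 297 CPM at day 2 and 119 and 164 CPM at day 7, and in WT 201 and 149 CPM, 216 and 402 CPM, 159 and 142 CPM and 86.4 and 76.3 CPM. The endothelial sum was 43.9 and 83.3 CPM in WT at day 0 and 166 and 170 CPM at day 7, and 52.0 and 63.2 CPM and then 122 and 134 CPM in the mutant. WT replicate 1 was above WT replicate 2 at 4 of 4 days for Bmpr1a (1.33 to 2.27 times), Id2 (1.60 to 6.57 times) and Id3 (1.46 to 9.29 times), and the part of the other cell types' RNA in this was not tested. In such bulk samples, fewer cells of a type and less RNA per cell cannot be told apart.

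On mm10 the 7 genes lie apart from each other, and all are protein-coding in GENCODE M21. Bmp4 spans chr14:46383520-46390669 and Bmpr1a chr14:34410734-34503341, both on the minus strand. Smad6 spans chr9:63953076-64022059 on the minus strand. Id1 spans chr2:152736251-152737410 on the plus strand, Id2 chr12:25093799-25097140 on the minus strand, Id3 chr4:136143497-136145755 on the plus strand and Id4 chr13:48261228-48266026 on the plus strand. Annotated genes on the other strand overlap Bmp4, Bmpr1a and Id4, and since the strand setting of the counting is not stated, reads of the 2 strands cannot be told apart there.

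RefSeq (GRCm38.p6) gave a promoter window for 6 of the 7 genes. Of these, the 250 bases before the start are shown for Bmp4 and Id4, because these are the ligand that fell and the target that rose. Capitals mark the matches to 4 motifs searched on both strands: GGCGCC (the GC-rich SMAD1/5 element), CTTTGA (TCF/LEF), CAGGTG (the E protein box) and CCGGAA (ETS).
Bmp4, chr14:46390670-46390919, minus strand: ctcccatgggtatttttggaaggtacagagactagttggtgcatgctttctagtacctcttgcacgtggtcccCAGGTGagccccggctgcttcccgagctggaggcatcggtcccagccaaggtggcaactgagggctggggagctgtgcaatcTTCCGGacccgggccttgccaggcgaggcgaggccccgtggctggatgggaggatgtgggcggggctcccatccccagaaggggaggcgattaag
Id4, chr13:48260866-48261115, plus strand: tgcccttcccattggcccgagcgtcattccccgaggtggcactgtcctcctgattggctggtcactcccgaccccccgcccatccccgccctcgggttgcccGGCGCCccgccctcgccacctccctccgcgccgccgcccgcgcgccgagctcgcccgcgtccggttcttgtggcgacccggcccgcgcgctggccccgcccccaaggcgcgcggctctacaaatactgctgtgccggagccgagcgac
The Id4 window holds GGCGCC 148 bases before the start, and matches also stand 198 bases before the RefSeq start of Bmpr1a and 231 bases before that of Id2. The windows of Bmpr1a, Id2 and Id3 lie inside the GENCODE spans given above, which begin further upstream. The Bmp4 window holds CAGGTG 177 bases before the start and, on the reverse strand, CCGGAA 95 bases before it. Of 32851 mouse promoter windows of this length, 9.59% hold GGCGCC, 13.8% CTTTGA, 17.2% CAGGTG and 12% CCGGAA. The windows of Id3 and Smad6 hold none of the 4 motifs, and CTTTGA is in none of the 6 windows. The RefSeq start of Id4 lies upstream of the GENCODE start of the gene given above, so the window is placed by RefSeq alone. A match describes the letters only.

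In 2i the ligand Bmp4 and the target Id1 fell in both genotypes and Id4 rose, while Id2 fell in the mutant at day 7. The WT Id2 libraries of day 7 also lay below those of day 0, at a log2 fold change of -2.58. That value did not pass (adjusted p = 0.0758 in edgeR). Bmpr1a, Smad6 and Id3 passed no test in the edgeR fit of all libraries. A gene was called at an adjusted p under 0.05 in edgeR's quasi-likelihood test over 15365 genes. In WT, 1 of the 7 was called at day 1 against day 0 (0.202% of all genes tested), 3 at day 2 (2.16%) and 3 at day 7 (12.7%). In the mutant, 1 was called at day 1 (1.41% of all genes), 2 at day 2 (2.92%) and 4 at day 7 (14.2%). The WT libraries of days 1, 2 and 7 did not overlap those of day 0 in 3, 3 and 6 of the 7 genes, against 29.5, 38.8 and 54.5% of all genes, and the mutant libraries in 3, 5 and 7, against 40.2, 50.4 and 68.8%. The median log2 fold change of the 7 at day 7 was -1.85 in WT and -0.55 in the mutant, beside -0.01 and 0 over all genes. Both medians are the value of Id3, which did not pass in either genotype. The 7 genes moved in both directions, so the medians do not describe a shared change.

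**Figure D1:**
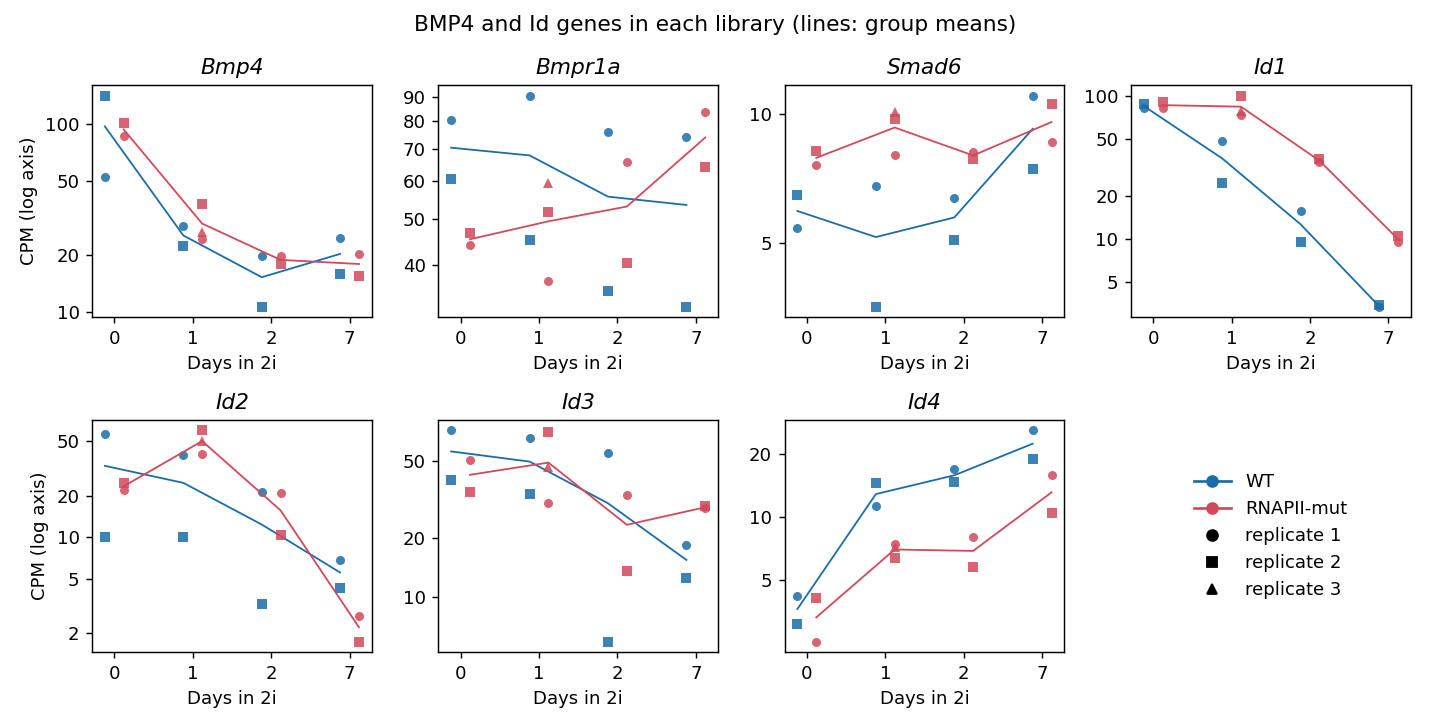
Level of each of the 7 genes in every library, in CPM on a log axis, against days in 2i. Points are libraries, shapes are replicate numbers, colours are genotypes and lines join group means. Id1 drops from 82.0 to 90.2 CPM at day 0 to 3.33 to 10.4 CPM at day 7, and Id4 moves the other way.

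Bmp4, the ligand, fell in both genotypes. WT libraries held 52.4 and 143 CPM at day 0, 28.8 and 22.3 CPM at day 1, 20.0 and 10.6 CPM at day 2 and 24.8 and 16.0 CPM at day 7. Mutant libraries held 86.7 and 101.1 CPM at day 0, 24.5, 37.5 and 26.6 CPM at day 1, 19.8 and 18.1 CPM at day 2 and 20.4 and 15.6 CPM at day 7. Every day 0 library was above every later one of its genotype, though the WT pair at day 0 differed 2.72-fold. In WT the edgeR log2 fold change was -2.67 ± 0.44 (SE) at day 2, a 6.37-fold lower level with adjusted p = 0.0104, and -2.26 ± 0.44 at day 7, with adjusted p = 0.00655. At day 1 it was -1.93 ± 0.43 with adjusted p = 0.10, which did not pass; it did without WT day 0 replicate 1 (adjusted p = 0.0247) and by DESeq2 (0.00152). In the mutant it was -1.67 ± 0.38 at day 1 (adjusted p = 0.0495 in edgeR), -2.31 ± 0.44 at day 2 (adjusted p = 0.0156) and -2.38 ± 0.44 at day 7 (5.22-fold lower, adjusted p = 0.00358). By edgeR, the WT day 2 call was lost without WT day 0 replicate 2 or WT day 2 replicate 2 (adjusted p = 0.0545 and 0.117), and the WT day 7 call without WT day 7 replicate 2 (0.0578). In the mutant, the day 1 call was lost without any of 11 libraries (adjusted p = 0.0526 to 0.308 in edgeR), namely the WT day 7 pair and all 9 mutant libraries, the day 2 call without any of the 4 libraries it compares (0.0862 to 0.138), and the day 7 call without mutant day 7 replicate 2 (0.0502). Without both WT libraries numbered 1 at days 0 and 1, the WT log2 fold changes were -3.22 at day 2 and -2.81 at day 7. That fit had only replicate 2 for WT day 0, the higher Bmp4 library of the pair. It also kept WT day 2 replicate 1, whose stromal sum was high.

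Bmpr1a, the receptor that takes up the BMP4 signal, passed no test in the fit of all libraries. WT libraries held 80.3 and 60.4 CPM at day 0, 90.5 and 45.1 CPM at day 1, 75.9 and 35.3 CPM at day 2 and 74.1 and 32.7 CPM at day 7. Mutant libraries held 44.0 and 46.6 CPM at day 0, 37.1, 51.7 and 59.4 CPM at day 1, 65.6 and 40.4 CPM at day 2 and 83.7 and 64.2 CPM at day 7. The WT groups overlapped at all days, and in the mutant only the day 7 pair lay wholly above day 0, with a log2 fold change of 0.71 that did not pass (adjusted p = 0.336 in edgeR). With only the mutant day 0 and day 7 libraries in the fit it did, at adjusted p = 0.00418, in a setting that called 38.8% of all genes.

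Smad6 encodes an inhibitory SMAD that blocks the type I receptors of BMP and is itself a target of the pathway. Its level was low, at 3.53 to 11.1 CPM over all 17 libraries. In WT it was 5.39 and 6.46 CPM at day 0 and 11.1 and 7.42 CPM at day 7, and in the mutant 7.59 and 8.21 CPM at day 0 and 8.61 and 10.6 CPM at day 7. In both genotypes the day 7 libraries lay above the day 0 libraries, with log2 fold changes of 0.64 (adjusted p = 0.204 in edgeR) and 0.28 (adjusted p = 0.623). Neither passed.

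Id1 fell in both genotypes. WT libraries held 82.0 and 88.2 CPM at day 0, 48.4 and 24.7 CPM at day 1, 15.7 and 9.52 CPM at day 2 and 3.33 and 3.43 CPM at day 7. Mutant libraries held 82.2 and 90.2 CPM at day 0, 73.2, 100.7 and 78.4 CPM at day 1, 34.6 and 35.9 CPM at day 2 and 9.55 and 10.4 CPM at day 7. The genotypes overlapped at day 0 and were separate at days 1, 2 and 7, with the mutant higher each time. In WT, Id1 had a log2 fold change of -1.22 ± 0.30 at day 1 (adjusted p = 0.135 in edgeR, which did not pass), and it fell by day 2, at -2.75 ± 0.31 (adjusted p = 0.00294), and day 7, at -4.65 ± 0.34 (25.2-fold lower, adjusted p = 7.26e-05). The day 1 difference passed without WT day 1 replicate 1 (adjusted p = 0.0225) and by DESeq2 (0.0111). In the mutant the day 1 libraries overlapped those of day 0. The level then fell by day 2, at -1.29 ± 0.30 (2.45-fold lower, adjusted p = 0.0336 in edgeR), and by day 7, at -3.11 ± 0.32 (8.65-fold lower, adjusted p = 0.000129). The mutant day 2 call was lost without mutant day 1 replicate 3 or any 1 of the 6 mutant libraries of days 0, 2 and 7 (adjusted p = 0.051 to 0.214). The day 7 calls of both genotypes held in each of the 24 alternatives run. Ordered by mean, mutant day 0, WT day 0 and mutant day 1 overlapped at the top, then WT day 1 with mutant day 2, then WT day 2 with mutant day 7, and WT day 7 stood alone at the bottom.

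Id2 and Id3, which restrain differentiation as Id1 does, differed by up to 6.57 and 9.29 times between the WT replicates of a day, against 1.96 times for Id1. For Id2, WT libraries held 56.4 and 10.1 CPM at day 0, 39.9 and 10.1 CPM at day 1, 21.6 and 3.28 CPM at day 2 and 6.84 and 4.27 CPM at day 7. Mutant libraries held 22.1 and 25.1 CPM at day 0, 40.3, 60.3 and 50.3 CPM at day 1, 21.1 and 10.4 CPM at day 2 and 2.70 and 1.74 CPM at day 7. The mutant day 1 libraries were all above those of day 0, with a log2 fold change of 1.09 that did not pass (adjusted p = 0.606 in edgeR). It did in an edgeR fit of the compared libraries alone (adjusted p = 0.0113), which called 1077 of all genes, against 216 with all libraries. In the mutant both Id2 and the neural marker sum given above were highest at day 1 and lowest at day 7. From day 0 to day 1 in WT replicate 2, the neural sum went from 149 to 402 CPM while Id2 stayed at 10.1 CPM. In WT replicate 1 it went from 201 to 216 CPM while Id2 went from 56.4 to 39.9 CPM, and both were lowest at day 7. The part of neural cells in the Id2 values was not tested. At day 7 Id2 fell in the mutant, by 3.41 ± 0.94 on the log2 scale (10.6-fold, adjusted p = 0.0287 in edgeR), and the call was lost without any of the 4 libraries compared (0.0839 to 0.187). In WT the day 7 log2 fold change was -2.58, with adjusted p = 0.0758 in edgeR, and -0.85 without both WT libraries numbered 1 at days 0 and 1. It passed without WT day 0 replicate 2 or either WT day 2 library (0.0334 to 0.0385), with the replicate number as a block (-2.29, adjusted p = 0.0474) and by DESeq2 (0.00969). For Id3, WT libraries held 72.0 and 40.1 CPM at day 0, 65.6 and 33.7 CPM at day 1, 54.7 and 5.90 CPM at day 2 and 18.4 and 12.6 CPM at day 7. Mutant libraries held 50.3 and 34.6 CPM at day 0, 30.5, 70.3 and 46.5 CPM at day 1, 33.4 and 13.7 CPM at day 2 and 28.7 and 29.2 CPM at day 7. The day 7 libraries lay below day 0 in both genotypes, with log2 fold changes of -1.85 in WT (adjusted p = 0.129 in edgeR) and -0.55 in the mutant (adjusted p = 0.685). The WT day 7 value passed without either WT day 2 library (0.0292 and 0.0296) and by DESeq2 (0.0465). The mutant day 7 value passed in an edgeR fit of the compared libraries alone (adjusted p = 0.0374), in a setting that called 5556 of all genes. The WT day 2 libraries overlap those of day 0, and without WT day 2 replicate 1 the log2 fold change was -3.25.

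Id4, the fourth family member, rose. WT libraries held 4.204 and 3.10 CPM at day 0, 11.3 and 14.5 CPM at day 1, 16.98 and 14.7 CPM at day 2 and 26.0 and 18.8 CPM at day 7. Mutant libraries held 2.55 and 4.11 CPM at day 0, 7.44, 6.40 and 7.21 CPM at day 1, 8.003 and 5.80 CPM at day 2 and 15.8 and 10.4 CPM at day 7. Each later group lay above day 0 of its genotype, and WT lay above the mutant at days 1, 2 and 7. In WT the log2 fold change was 1.82 ± 0.32 at day 1 (adjusted p = 0.0445 in edgeR), 2.12 ± 0.33 at day 2 (adjusted p = 0.00727) and 2.62 ± 0.33 at day 7 (6.13-fold higher, adjusted p = 0.000767). The day 1 call was lost without any of 16 libraries, every one but WT day 1 replicate 1 (adjusted p = 0.056 to 0.343), and also without both WT libraries numbered 1 at days 0 and 1 (0.0738). The day 2 call was lost without WT day 0 replicate 2 (0.0574). In the mutant the log2 fold changes of 1.07 at day 1 and 1.05 at day 2 did not pass (adjusted p = 0.111 and 0.105 in edgeR), while DESeq2 called both (0.0112 and 0.0226). At day 7 the mutant value was 1.98 ± 0.33, with adjusted p = 0.0018 (3.94-fold higher), and it held in each of the 24 alternatives run.

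**Figure D2:**
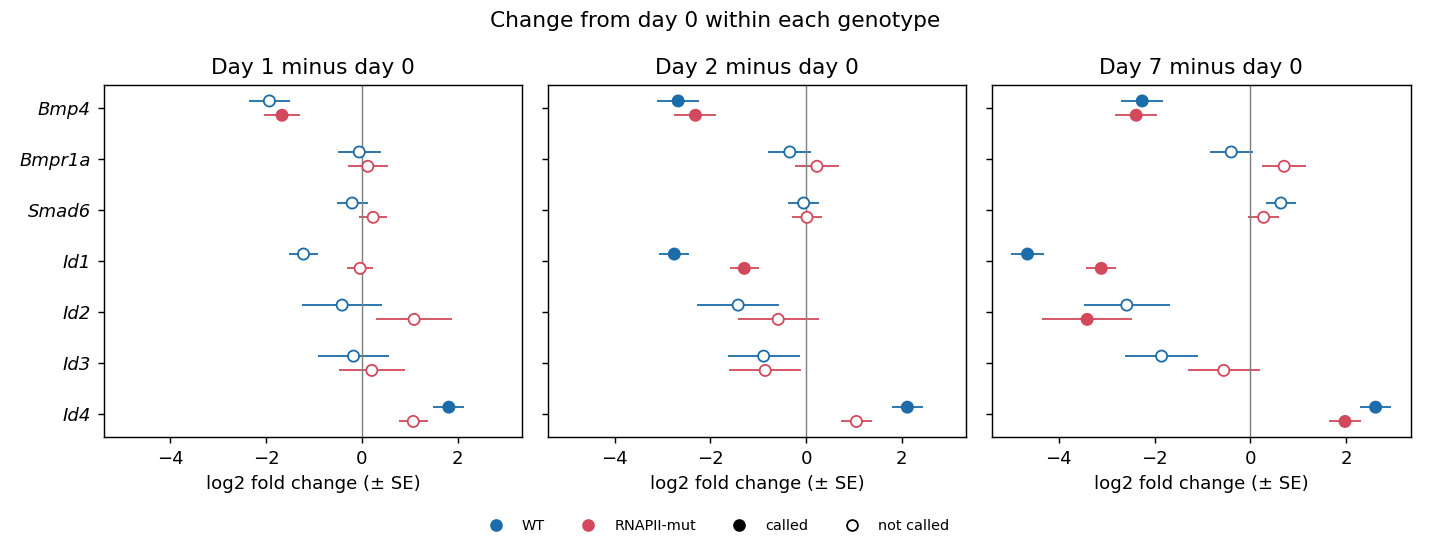
Log2 fold change of each gene from day 0 to days 1, 2 and 7 within WT and within the mutant, from edgeR, with SE bars. Filled points have an adjusted p under 0.05. At day 7, Bmp4 lies at -2.26 and -2.38, Id1 at -4.65 and -3.11 and Id4 at 2.62 and 1.98 in WT and the mutant.

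Per length of exon, the summed level of the 4 Id genes was lower at day 7 than at day 0, and Id3 and Id4 made up more of it. In WT it was 119 ± 22.4, 72.8 ± 35.1, 37.0 ± 28.8 and 19.7 ± 4.30 CPM per kb at days 0, 1, 2 and 7 (mean ± SD, n = 2). In the mutant it was 109 ± 0.139, 122 ± 27.5 (n = 3), 51.8 ± 10.5 and 29.1 ± 0.553 CPM per kb. Id1 held 52.3 and 73.6% of the sum in the WT day 0 libraries and 12.6 and 17.8% at day 7. In the mutant its share went from 65.2 and 71.7% to 28.0 and 31.2%. The Id4 share of the sum was 0.809 and 0.778% in WT at day 0 and 29.7 and 29.4% at day 7, and in the mutant 0.609 and 0.983% and then 13.96 and 9.45%. At day 7 Id3 held most in each genotype, with 45.3 and 42.3% in WT and 54.3 and 56.9% in the mutant. These shares follow from the levels above and carry no test of their own.

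**Figure D3:**
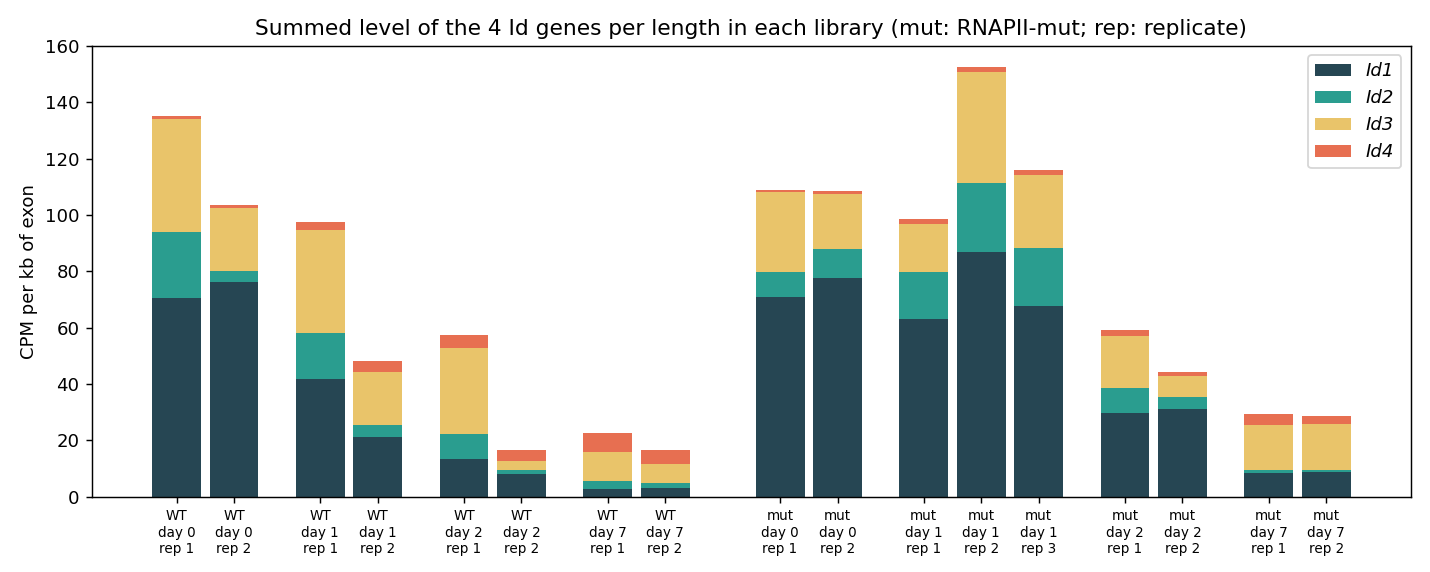
Summed level of Id1, Id2, Id3 and Id4 per kb of exon in each of the 17 libraries, as stacked bars in CPM per kb. The bars reach 135 and 103 CPM per kb in the WT day 0 libraries and 22.7 and 16.6 CPM per kb in those of day 7.

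The mutant was compared with WT on each day. None of the 7 genes was called at day 0, 1, 2 or 7, where 0.28, 0.417, 0.0716 and 0.0976% of all genes were called. At an unadjusted p under 0.05 edgeR gave 0, 3, 2 and 2 of the 7 on those days, against 13.2, 14.4, 6.04 and 9.53% of all genes. DESeq2 called 0, 2, 2 and 1, against 4.52, 4.99, 0.872 and 2.04% of all genes. The libraries of the genotypes were separate for 2, 4, 3 and 4 of the 7 genes, against 47, 26, 30.1 and 44.9% of all genes. Id1 was 2.30-fold higher in the mutant at day 1 (log2 1.20 ± 0.28, adjusted p = 0.083 in edgeR), 2.79-fold at day 2 (1.48 ± 0.30, adjusted p = 0.178) and 2.95-fold at day 7 (1.56 ± 0.31, adjusted p = 0.077). None passed in edgeR, while DESeq2 called all of these, with adjusted p = 0.00338, 0.00201 and 0.000611. With 1 library left out at a time, the Id1 log2 difference was 0.7998 to 1.769 at day 1, 1.165 to 1.89 at day 2 and 1.501 to 1.618 at day 7. Among these edgeR fits it passed only where a WT day 1 library was left out. Such a library is in neither group compared at days 2 and 7, so its removal left the compared libraries of those days unchanged. These calls are therefore no added evidence of a genotype difference at days 2 and 7. With the compared groups alone, the Id1 difference passed at none of days 1, 2 and 7. Without both WT libraries numbered 1 at days 0 and 1 it was 1.77 at day 1 (adjusted p = 0.0443), 1.48 at day 2 (0.0578) and 1.56 at day 7 (0.0296). Id4 had lower mutant values, with log2 differences of -0.88 ± 0.28, -1.20 ± 0.32 and -0.77 ± 0.31 at days 1, 2 and 7 (adjusted p = 0.176, 0.36 and 0.468 in edgeR). DESeq2 called it at days 1 and 2 (adjusted p = 0.0492 and 0.0264). Smad6 libraries of the mutant were above those of WT at days 0, 1 and 2, with log2 differences of 0.41, 0.85 and 0.48, and none passed (adjusted p = 0.63, 0.212 and 0.945 in edgeR). Bmpr1a libraries were lower in the mutant at day 0, with a log2 difference of -0.64 (adjusted p = 0.594 in edgeR). Id2 libraries of the mutant were above those of WT at day 1, with a log2 difference of 1.01 (adjusted p = 0.609 in edgeR). At day 7 Id2 was separate with the mutant lower (-1.32) and Id3 with the mutant higher (0.90), at adjusted p = 0.66 and 0.715 in edgeR. Bmp4 overlapped between genotypes on every day.

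**Figure D4:**
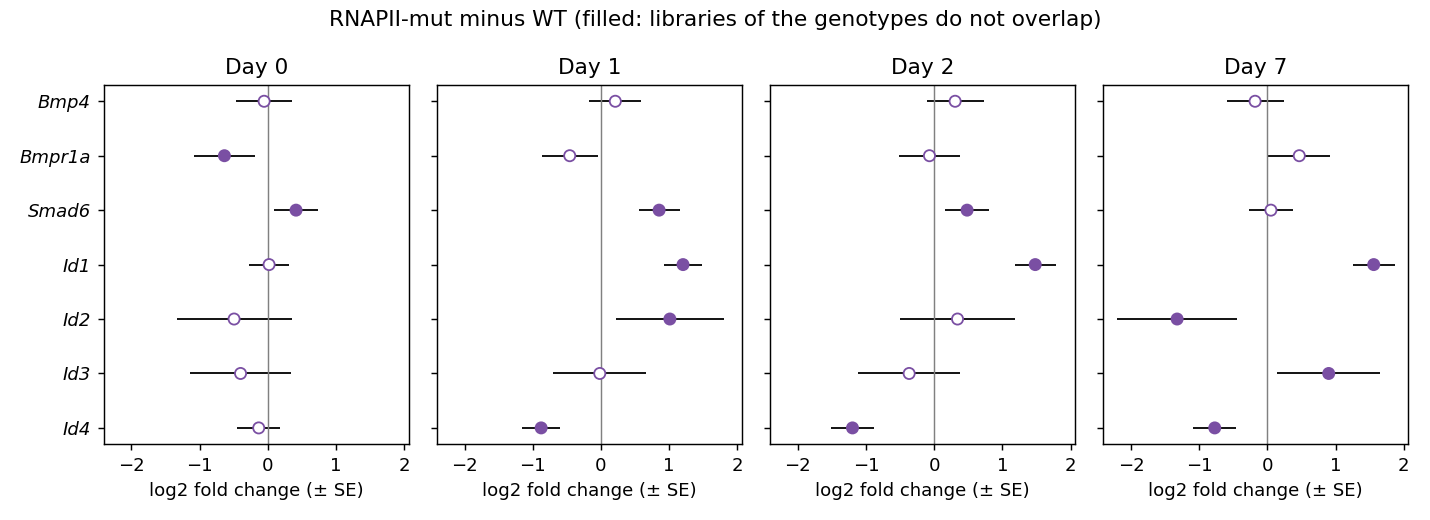
Log2 difference of the mutant from WT in each of the 7 genes on each day, from edgeR, with SE bars. Filled points are genes whose libraries do not overlap between genotypes. Id1 is at 1.20, 1.48 and 1.56 at days 1, 2 and 7 and at 0.02 on day 0.

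The difference between the genotypes in their response to 2i was tested as an interaction in the same fit. It called 0 genes, members included, at day 1, day 2 and day 7 (0% of all genes each). At an unadjusted p under 0.05, 118, 366 and 1178 of all genes and 1, 2 and 1 of the 7 passed at days 1, 2 and 7. DESeq2 called 0, 0 and 67 of all genes at days 1, 2 and 7, and 0 of the 7. The Id1 response of the mutant minus that of WT was 1.18 ± 0.40, 1.46 ± 0.42 and 1.54 ± 0.42 on the log2 scale at those days, with adjusted p = 1, 1 and 0.504 in edgeR. The 95% interval at day 7 was 0.63 to 2.45. For Id4 the difference was -0.74 ± 0.43, -1.06 ± 0.45 and -0.64 ± 0.45, with adjusted p = 1, 1 and 0.677 in edgeR. For Bmp4 it was -0.13 ± 0.59 at day 7 (95% interval -1.40 to 1.15), an interval that covers 0. For Id2 it was -0.83 ± 1.21 at day 7 (95% interval -3.45 to 1.79, adjusted p = 0.815 in edgeR), which also covers 0.

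The wider BMP pathway was followed with a list of 72 symbols, of which 71 are in the table and 65 were tested, the 7 members among them. In WT, 2 rose and 0 fell at day 1, 4 rose and 2 fell at day 2 and 7 rose and 9 fell at day 7 (0.13 and 0.0716%, 1.16 and 0.996%, and 6.62 and 6.1% of all genes rose and fell). In the mutant, 2 rose and 1 fell, 3 rose and 2 fell, and 8 rose and 6 fell (0.69 and 0.716%, 1.71 and 1.21%, and 7.2 and 6.96% of all genes). The median log2 fold change of the 65 at day 7 was -0.34 in WT and 0.40 in the mutant, beside -0.01 and 0 over all genes. The genotypes already differed at day 0. The median difference of the mutant from WT over the 65 was -0.34 at day 0 and 0.11 at day 7. Over all genes it was -0.05 and -0.03. WT day 0 includes replicate 1, with its high stromal sum, and the part of that library in these medians was not tested. Between the genotypes edgeR called 0 of the 65 at days 0, 1, 2 and 7, with 10, 15, 7 and 7 at an unadjusted p under 0.05 (13.2, 14.4, 6.04 and 9.53% of all genes), and DESeq2 called 6, 8, 2 and 1 (4.52, 4.99, 0.872 and 2.04% of all genes). Of 32 calls in the genes outside the 7 members, over both genotypes and all days, 4 held with each library left out in turn: Rgma at day 7 in both genotypes, and Bmp7 and Dusp9 at day 7 in WT. Without both WT libraries numbered 1 at days 0 and 1, the list had 0, 5 and 11 calls in WT at days 1, 2 and 7, where 0.186, 2.2 and 7.83% of all genes were called.

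Among the ligands, Bmp7 was called in the opposite direction to Bmp4. It rose from 3.70 CPM to 19.7 CPM at day 2 and 29.4 CPM at day 7 in WT (adjusted p = 0.0342 and 0.00478 in edgeR) and from 3.75 to 23.0 CPM at day 7 in the mutant (adjusted p = 0.00609). The WT day 2 call was lost without both WT libraries numbered 1 at days 0 and 1 (0.12). Among receptors and co-receptors, Rgma, a membrane-anchored co-receptor for BMP ligands, rose at days 1, 2 and 7 in both genotypes; without both WT libraries numbered 1 at days 0 and 1 the WT day 1 call was lost (adjusted p = 0.103 in edgeR). Its WT means were 2.98, 14.6, 15.1 and 34.9 CPM at days 0, 1, 2 and 7 (adjusted p = 0.021, 0.00641 and 0.000253 in edgeR), and its mutant means 5.17, 15.3, 19.2 and 24.1 CPM (adjusted p = 0.0369, 0.013 and 0.00139). Bmpr1b, another type I receptor, fell in WT at day 7 by 3.94 ± 1.16 on the log2 scale (adjusted p = 0.0403 in edgeR), from 1.84 and 0.51 CPM to 0.15 and 0 CPM. Without both WT libraries numbered 1 at days 0 and 1 it was -2.73, with adjusted p = 0.163.

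Of the transducers, Smad9 rose at day 7 in both genotypes at low level, from 0.455 to 1.98 CPM in WT (adjusted p = 0.0486 in edgeR) and from 0.19 to 1.26 CPM in the mutant (adjusted p = 0.0189). The inhibitory Smad7, a second inhibitory SMAD beside Smad6, rose at day 7 from 77.7 to 169 CPM in WT (adjusted p = 0.0166 in edgeR) and from 67.8 to 138 CPM in the mutant (adjusted p = 0.0217); it was named here after its values were seen. Without both WT libraries numbered 1 at days 0 and 1, the WT calls of Smad9 and Smad7 were lost (adjusted p = 0.159 and 0.0608 in edgeR).

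Of the secreted antagonists and proteases, Fst (follistatin, which binds activins and BMPs) rose in the mutant at day 7, from 0.84 and 1.35 CPM to 26.4 CPM in both libraries (24.0-fold, adjusted p = 0.00298 in edgeR). WT Fst libraries held 31.2 and 3.76 CPM at day 0 and 33.6 and 20.1 CPM at day 7, and the day 7 test did not pass; the high day 0 library was WT replicate 1. Bmp1, a protease that cleaves the antagonist chordin, fell in WT at day 7 by 3.98 ± 1.14 on the log2 scale (adjusted p = 0.0375 in edgeR), where the day 0 libraries held 72.0 and 6.83 CPM and those of day 7 held 1.18 and 3.82 CPM. Grem1, an antagonist, had 0 counts in both WT day 7 libraries and 0.503 and 0.423 CPM at day 0, and was called as lower (adjusted p = 0.012 in edgeR). Without both WT libraries numbered 1 at days 0 and 1, the Bmp1 value was -1.45 (adjusted p = 0.213 in edgeR), while Grem1 was still called (0.0338). The high Bmp1 library, WT day 0 replicate 1, also had the high stromal sum given above, and its part in the Bmp1 value beyond this was not tested.

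Of the other targets, Gata2 rose at day 2 from 3.29 to 28.8 CPM in WT (adjusted p = 0.00641 in edgeR) and from 3.66 to 14.3 CPM in the mutant (adjusted p = 0.0332). Msx2 rose in the mutant to 16.2 CPM at day 1 and 14.9 CPM at day 2 from 2.83 CPM at day 0 (adjusted p = 0.0495 and 0.0485 in edgeR). These calls were lost without any 1 of 10 libraries at day 1 and of 9 at day 2. In WT, Msx2 was not called at those days. Its WT libraries held 1.66 to 6.55 CPM at day 0, 9.6 to 18.2 CPM at day 1 and 5.41 to 10.8 CPM at day 2. Dusp9, a phosphatase acting on MAP kinases that is induced by BMP, fell at day 7 from 167 to 29.5 CPM in WT (adjusted p = 0.00417 in edgeR) and from 115 to 22.3 CPM in the mutant (adjusted p = 0.0036). Of the E proteins that ID proteins bind, 0 of 3 (Tcf3, Tcf4 and Tcf12) were called in the 13 comparisons by edgeR or DESeq2. At an unadjusted p under 0.05, 1 passed in edgeR at day 7 in the mutant and 1 in the mutant against WT at day 0. In an edgeR fit of the compared libraries alone, Tcf4 and Tcf12 were called at day 7 in the mutant (log2 1.01 and 1.08, adjusted p = 0.000924 and 0.00016). That setting called 5556 of all genes, against 2176 in the edgeR fit of all libraries. In the latter the adjusted p was 0.103 for Tcf4 and 0.249 for Tcf12.

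**Figure D5:**
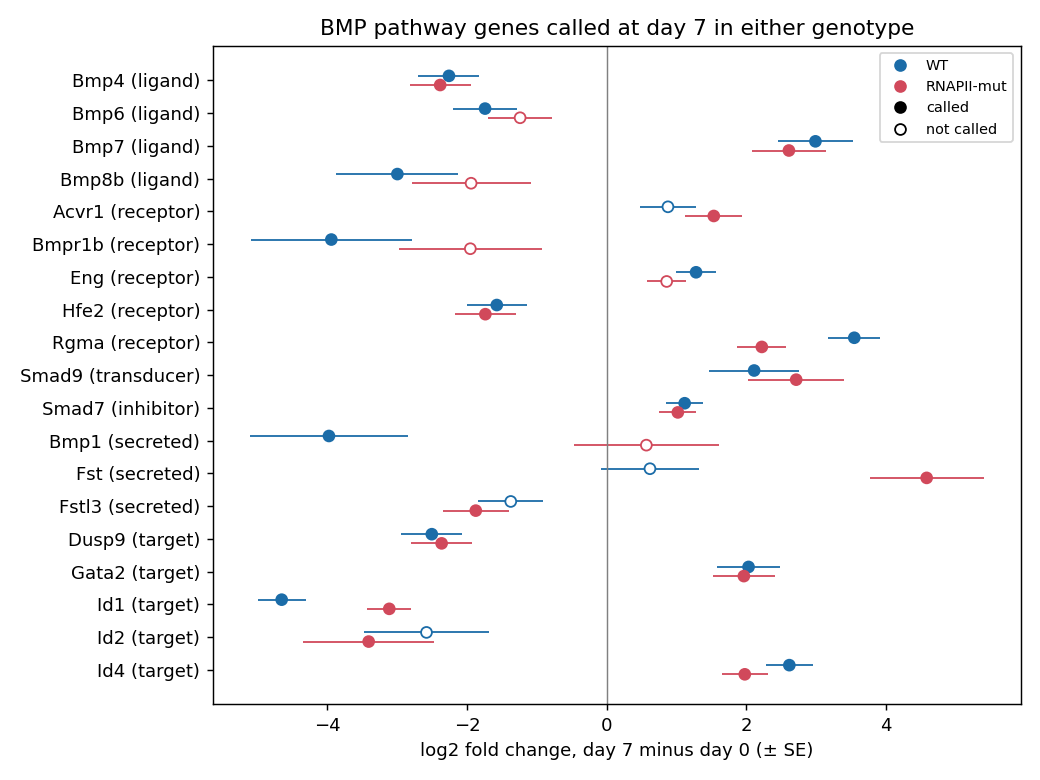
Log2 fold change from day 0 to day 7 within WT and within the mutant, from edgeR with SE bars, for the 19 pathway genes called in either genotype, with their roles in brackets; Grem1, at 0 counts in WT at day 7, is not drawn. Filled points have an adjusted p under 0.05, with Rgma and Bmp7 to the right and Id1 farthest to the left in WT.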

How the data were processed

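The authors deposited raw gene counts, 1 table for all 17 libraries with gene symbols. Per the submitters' processing notes, STAR, deepTools and the mm10 build were used; versions, the counting tool, annotation and strand setting are not given in the sources used here. In each library 86.0 to 89.1% of the counts from 1 to 99 were even numbers. The cause was not tested. A fragment counted more than 1 time would bear on the counts and p-values given here, so halved counts were fitted as an alternative chosen after seeing the data. Of 20621 genes, 15365 passed filterByExpr on the 8 groups, all 7 members included. edgeR 4.0.16 (R 4.3.3) fitted TMM-scaled counts with 1 coefficient per group over all 17 libraries and 13 contrasts, Benjamini-Hochberg adjusted over all genes, two-sided, at 0.05 (common biological coefficient of variation 0.333, 9 residual degrees of freedom, prior 3.96). SE is the log2 fold change over the root of F. CPM use TMM-scaled sizes; fold changes come from the model, not from ratios of CPM. Per-length levels use GENCODE M21 exons. Alternatives were DESeq2 1.42.0, RLE factors, no filter, the compared groups alone, a replicate block and leaving out libraries. The procedure was tested on simulated data. The members and lists were chosen with earlier results of these data known. Pathway genes named, besides the members, are up to 4 called genes per comparison with the largest fold change, and exceptions are marked in the text.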

Additional observations from a re-analysis of the deposited data

How the results depend on the processing

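Over 24 alternatives, 46 member comparisons were followed: those whose libraries do not overlap, and the Id1 and Id4 differences in response. All 46 kept their direction, while 36 of the other 45 member comparisons changed sign under at least 1. Where libraries do not overlap, leaving out 1 library can hardly reverse the order of the group means. The kept directions were thus largely fixed by the choice of comparisons and are no test of them. Of the 14 called, 3 passed under all 24: Id1 at day 7 in both genotypes and Id4 at day 7 in the mutant. Members called in WT at day 1 numbered 1, and 3 by DESeq2, 0 with the compared groups alone and 0 without both WT libraries numbered 1 at days 0 and 1. At day 2 they were 0 with the compared groups alone, and at day 7 they were 5 by DESeq2 and 1 with the compared groups alone. In the mutant at day 1 they were 0 with RLE factors, 2 by DESeq2 and 2 with the compared groups alone. At day 2 they were 3 by DESeq2, and at day 7 they were 6 with the compared groups alone, adding Bmpr1a and Id3. Of all genes, the main fit called 31, 332 and 1955 in WT at days 1, 2 and 7 and 216, 449 and 2176 in the mutant. DESeq2 called 328, 1231 and 3236 in WT and 804, 1226 and 3314 in the mutant. The compared groups alone gave 0, 0 and 133 in WT and 1077, 1748 and 5556 in the mutant. That setting has fewer libraries to estimate the spread in either genotype. Why its calls fell in WT and rose in the mutant was not tested. Halved and rounded counts changed no call of a member. Between genotypes DESeq2 called 2, 2 and 1 at days 1, 2 and 7, and without both WT libraries 1 was called at day 1 and 1 at day 7. Leaving out 1 library at a time gave 0 to 2, 1 to 4 and 2 to 5 members in WT at days 1, 2 and 7, 0 to 1, 0 to 2 and 2 to 4 in the mutant, and 0 to 1 between genotypes at days 1, 2 and 7. With the replicate number as a block, 1, 3 and 4 members were called in WT and 0, 2 and 4 in the mutant. Libraries with the same number deviated together (r over 0.1) in 6 of 6 pairs of WT days (0.262 to 0.760) but in 2 of 6 pairs of mutant days, a hint from the data that the numbers go together in WT and not in the mutant. Of the pathway list, leaving out 1 library gave 6 to 18 calls at day 7 in WT and 6 to 16 in the mutant, and the compared groups alone gave 3 and 34.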

Other observations

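For each member, the 3 genes of at least 5 mean CPM whose log2(CPM + 1) ran most alike over the 17 libraries were listed by Pearson's r, as a description, since these libraries share depth, genotype and day. For Bmp4 they were Rab27a (0.946), the ERK target Spry4 (0.943) and Timm21 (0.937). For Id1 they were Crmp1 (0.968), Coch (0.955) and Cdkn1c (0.955), and for Id4 they were Cers2 (0.937), Mfsd1 (0.931) and Lpl (0.93). For Bmpr1a they were Hs2st1 (0.972), Kif5b (0.969) and Pank3 (0.969), for Smad6 Zfp28 (0.835), Cmtr1 (0.796) and Btbd1 (0.796), for Id2 Map2 (0.939), Dpysl3 (0.904) and Trim67 (0.899), and for Id3 Nploc4 (0.945), Mat2a (0.942) and Ppm1d (0.936). Among the Id genes, Id1 and Id2 had r = 0.79 and Id1 and Id4 r = -0.87 over the 17 libraries. The ratio of Id4 to Id1 CPM was 0.035 to 0.051 in WT at day 0 and 5.50 to 7.80 at day 7, and in the mutant 0.031 to 0.046 and 1.01 to 1.66.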
